A study of Tigriopus californicus with 9 samples.

Results

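Hybrids with Santa Cruz mothers (SCNf x SDm, 2 libraries) were compared with the San Diego population of their fathers (SD, 3 libraries) in Tigriopus californicus, a tidepool copepod (a small crustacean) with strongly separated coastal populations. These 5 of the 9 libraries of the series were chosen by their titles. The other 4 libraries, 2 from the reverse cross with SD mothers (SDf x SCNm) and 2 from Santa Cruz animals (SCN), are given as context and share in the estimate of the spread. SCNf x SDm animals descend from virgin SCN females mated to SD males and were bred on to the third hybrid generation. SD and SCN animals came from large laboratory cultures of each population, under the same light and temperature. Each library was made from polyA RNA of 1 pool of 400 to 500 whole animals of every stage, after 2 h in water at 20 °C. In pools of whole animals, fewer cells of a type and less RNA per cell cannot be told apart. For both SCNf x SDm libraries another label names the reverse cross. The values carry no allele calls that could show which mitochondrial genome the animals had.

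Mitochondria pass from mother to offspring, so by their titles SCNf x SDm animals carry SCN mitochondrial DNA with a nuclear genome mixed from both populations. The respiratory chain is built from subunits of both genomes: the 13 proteins of mitochondrial DNA assemble with many nuclear ones into complexes I, III, IV and V, while complex II is all nuclear. Copepods wear a cuticle of chitin fibres bound by cuticle proteins, which is shed and rebuilt at each moult.

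The files list 13758 features, of which 13745 are pairs of SD and SCN contigs and 13 are mitochondrial genes. Values are in RPKM (reads scaled by contig length and library depth), so levels of different contigs can be set side by side per length. A protein name that says something of function was attached to 8893 features. Whole reads recovered from the steps of the RPKM values numbered 14020264 and 13104295 in SCNf x SDm. SD replicate 1 had 17001315, replicate 2 had 5367168 and replicate 3 had 966816. Shallow SD replicate 3 had 0 reads in 7.56% of features, while SD replicates 1 and 2 and both SCNf x SDm libraries had between 0.0291% and 0.670%. Lists of muscle, nervous system, yolk, germline and cilia genes had no member without reads in all 5 libraries. No sequencing run held both SCNf x SDm and SD, which were read in run 5 and in runs 1, 2 and 3, so run and group cannot be told apart.

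SCNf x SDm hybrids stood above SD in 53 features, among them genes of the cuticle, C-type lectins that bind sugars, a glutathione S-transferase and ubiquitin. With limma on log2(RPKM + 1), fitted to all 9 libraries, these 53 features (0.385% of 13758) were higher at a Benjamini-Hochberg adjusted p under 0.05. None was lower (0 of 13758, 0.0%), although 1337 features above 0 and 848 below 0 had an unadjusted p under 0.05. The smallest adjusted p below 0 was 0.0752, and voom, a test on the recovered reads, called 13 lower. Differences of the 53 ran from 1.95 to 5.68 on the log2 scale with a median of 3.09, and in each of them both SCNf x SDm libraries lay above all 3 SD libraries. In all 53 both SDf x SCNm libraries also lay above all SD libraries, and in 34 both SCN libraries did. Low SD values were part of how the 53 were chosen. Over all features the median difference was 0.01, and 6944 (50.5%) lay above 0. Of the 53 features 16 had an informative name, or 30.2%, against 64.6% of all features. The population whose contigs the reads were aligned to is not given in the labels or file headers, so for every value here a difference in how SCN and SD alleles align and a difference in RNA level cannot be told apart.

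How many features passed depended on which libraries shared the estimate of the spread. The pair of SCN libraries differed from each other by a median of 0.93 on the log2 scale, against 0.32 for the SCNf x SDm pair, 0.34 for the SDf x SCNm pair and 0.37 to 0.57 for pairs of SD libraries. Pairs of an SCNf x SDm and an SDf x SCNm library differed by 0.18 to 0.41. The closest such pair was closer than the replicates of either cross. Without the SCN libraries, which are not part of the contrast, 575 features (4.18%) were higher and 186 (1.35%) lower, the 53 among them. Leaving out SCN replicate 1 or SCN replicate 2 alone gave 770 and 749 calls. Leaving out SD replicates 1, 2 or 3 left 18, 8 and 13 calls, and leaving out SDf x SCNm replicate 1 or replicate 2 left 25 each. Without SCNf x SDm replicate 1 there were 4 calls, and without SCNf x SDm replicate 2 limma called 0, with 720 features at an unadjusted p under 0.05. All 53 features stayed above 0 in each of the 23 alternative fits. Recovered reads of 15 of the 53 were 0 in SD replicate 3.

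**Figure D1:**
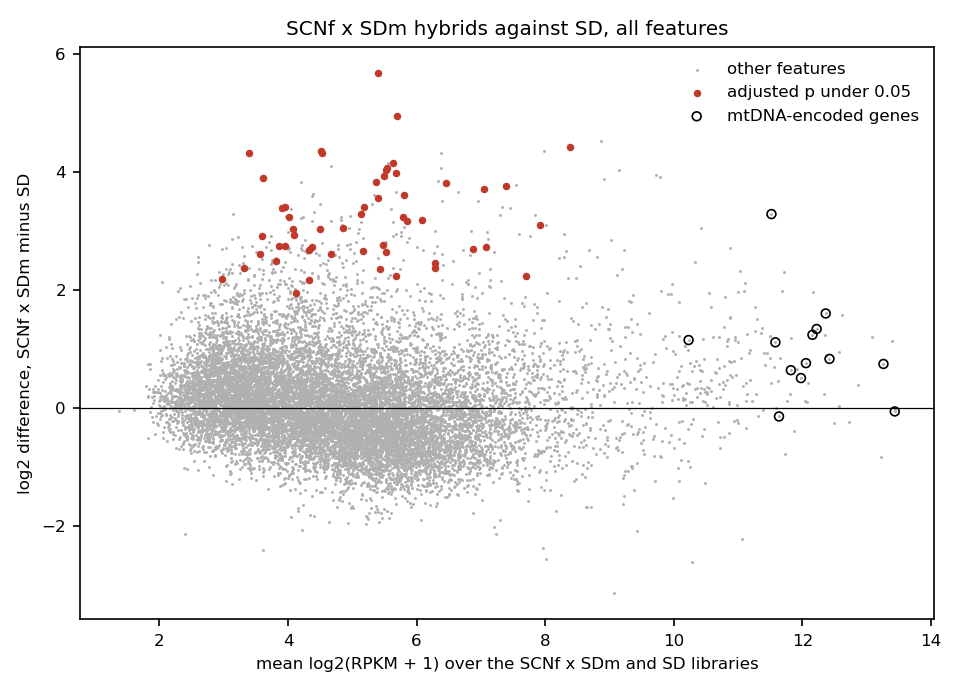
Log2 difference, SCNf x SDm minus SD, against the mean log2(RPKM + 1) over the 5 libraries, with 1 point for each of 13758 features. The 53 features with an adjusted p under 0.05 are red and all lie above 0, and open circles mark the 13 mitochondrial genes, of which 11 lie above 0.

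The largest difference of a gene with an informative name was in Contig4724, a pyridine nucleotide-disulfide oxidoreductase domain-containing protein, of a family of flavin enzymes that move electrons. Its level was 355 and 455 RPKM in SCNf x SDm, against 9.24, 18.1 and 10.5 RPKM in SD. That is 30.7-fold higher on the log2(RPKM + 1) scale (log2 4.94, SE 0.39, limma adjusted p = 0.00197). Other libraries had 223 and 238 RPKM in SDf x SCNm and 310 and 532 RPKM in SCN, so the SD libraries alone were low. It passed in 22 of the 23 alternatives.

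Cuticle genes made up 5 of the 16. Obstructor (Contig19526), a chitin-binding protein that in Drosophila organises the chitin matrix, rose to 178 and 404 RPKM in SCNf x SDm, against 32.4, 15.4 and 8.14 RPKM in SD (log2 3.98, SE 0.68, limma adjusted p = 0.0433). Levels of 180 and 174 RPKM in SDf x SCNm and of 61.1 and 13.9 RPKM in SCN placed one SCN library within the SD range. Obstructor rested on 59, 6 and 0 reads in SD, and its log2 difference ran from 3.39 to 6.21 over the alternatives, the highest with all libraries thinned to 1 depth. Chitinase-3-like protein 1 (Contig10608), of the family of chitin-cleaving enzymes, rose to 347 and 522 RPKM in SCNf x SDm, against 21.4, 41.5 and 28.7 RPKM in SD (log2 3.81, SE 0.66, limma adjusted p = 0.0471). The reverse cross had 72.3 and 253 RPKM and SCN 54.9 and 12.4 RPKM.

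Peritrophin (Contig10299), which binds chitin, stood at 139 and 160 RPKM in SCNf x SDm, against 22.3, 16.1 and 6.05 RPKM in SD (log2 3.41, limma adjusted p = 0.0423). Larval cuticle protein lcp-17 (Contig977cap) had 217 and 296 RPKM in SCNf x SDm and 36.1, 45.6 and 11.6 RPKM in SD (log2 3.18, limma adjusted p = 0.0440). Cuticle protein 7 (Contig979cap) had 122 and 154 RPKM in SCNf x SDm and 39.2, 16.2 and 15.0 RPKM in SD (log2 2.63, limma adjusted p = 0.0403). In SDf x SCNm both structural cuticle proteins were above the SCNf x SDm values, with 339 and 328 RPKM for lcp-17 and 242 and 176 RPKM for cuticle protein 7. These 5 genes passed in 11 to 14 of the 23 alternatives. Similar contigs of a large family may compete for reads, and their handling is not stated in the labels or file headers.

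A pair of C-type lectins, proteins that bind sugars and in arthropods take part in recognising microbes, was also higher. The C-type lectin-like precursor (Contig11276) rose to 577 and 653 RPKM in SCNf x SDm, against 53.3, 57.2 and 32.3 RPKM in SD (log2 3.70, SE 0.41, limma adjusted p = 0.00754). At 310 and 223 RPKM in SDf x SCNm and 91.1 and 46.3 RPKM in SCN, it was highest in the 2 SCNf x SDm libraries among all 9. The second lectin, C-type lectin domain family 4 member m (Contig94595), rose to 61.9 and 61.0 RPKM in SCNf x SDm, against 6.44, 3.90 and 6.89 RPKM in SD (log2 3.24, SE 0.49, limma adjusted p = 0.0315). It rested on 16, 1 and 1 reads in SD replicates 1, 2 and 3, and its log2 difference ran from 2.64 with a pseudocount of 5 to 4.62 with voom.

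Ubiquitin (Contig1785), the small protein that tags others for degradation, rose to 374 and 341 RPKM in SCNf x SDm, against 48.0, 44.9 and 74.8 RPKM in SD (log2 2.69, SE 0.36, limma adjusted p = 0.0195). The SCN libraries were higher still, at 902 and 641 RPKM, and SDf x SCNm had 341 and 283 RPKM. Glutathione S-transferase (Contig1767cap), which joins glutathione to toxins, rose to 353 and 505 RPKM in SCNf x SDm, against 65.7, 112 and 33.2 RPKM in SD (log2 2.73, SE 0.48, limma adjusted p = 0.0479). It had 314 and 444 RPKM in SDf x SCNm and 101 and 104 RPKM in SCN, both inside the SD range.

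Others of the 16 serve chemical sensing, sugar metabolism and muscle. A chemosensory protein (Contig2468), of a family of small carriers of hydrophobic molecules, stood at 102 and 112 RPKM in SCNf x SDm, against 16.6, 23.6 and 10.6 RPKM in SD (log2 2.66, limma adjusted p = 0.0315). Its SD values rested on 12, 8 and 0 reads, and the log2 difference of Contig2468 ran up to 4.34 once the added constant of the files was taken off. Inositol oxygenase-like (Contig1626cap), which opens the ring of myo-inositol, had 187 and 233 RPKM in SCNf x SDm and 32.1, 44.9 and 43.1 RPKM in SD (log2 2.37, limma adjusted p = 0.0323). Tropomyosin (Contig5890), which lies along actin in muscle, had 385 and 717 RPKM in SCNf x SDm and 99.2, 110 and 123 RPKM in SD (log2 2.24, limma adjusted p = 0.0390). Another 3 genes lay outside the rule for naming and were taken after their values were seen. They were a proactivator polypeptide-like protein (Contig21618, log2 2.36), croquemort-like (Contig22948, 2.23), whose Drosophila relative is a scavenger receptor, and zinc finger protein 131-like (Contig16034, 2.19).

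Of the 37 features without an informative name, Contig42697 had the largest difference of the whole comparison. It stood at 384 and 522 RPKM in SCNf x SDm, against 9.24, 9.23 and 5.45 RPKM in SD (log2 5.68, SE 0.51, limma adjusted p = 0.00300), with 472 and 419 RPKM in SDf x SCNm and 701 and 189 RPKM in SCN. Contig6819 had 1894 and 2304 RPKM in SCNf x SDm and 105, 148 and 58.5 RPKM in SD (log2 4.42). Contig39532 had 124 and 155 RPKM in SCNf x SDm and 4.79, 4.71 and 8.45 RPKM in SD (log2 4.36), while SCN had 30.5 and 3.16 RPKM. With SCNf x SDm replicate 1 left out, the 4 features still called were Contig42697, Contig4724, Contig25883 and Contig3861cap, the last pair unnamed and given here after their values were seen.

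**Figure D2:**
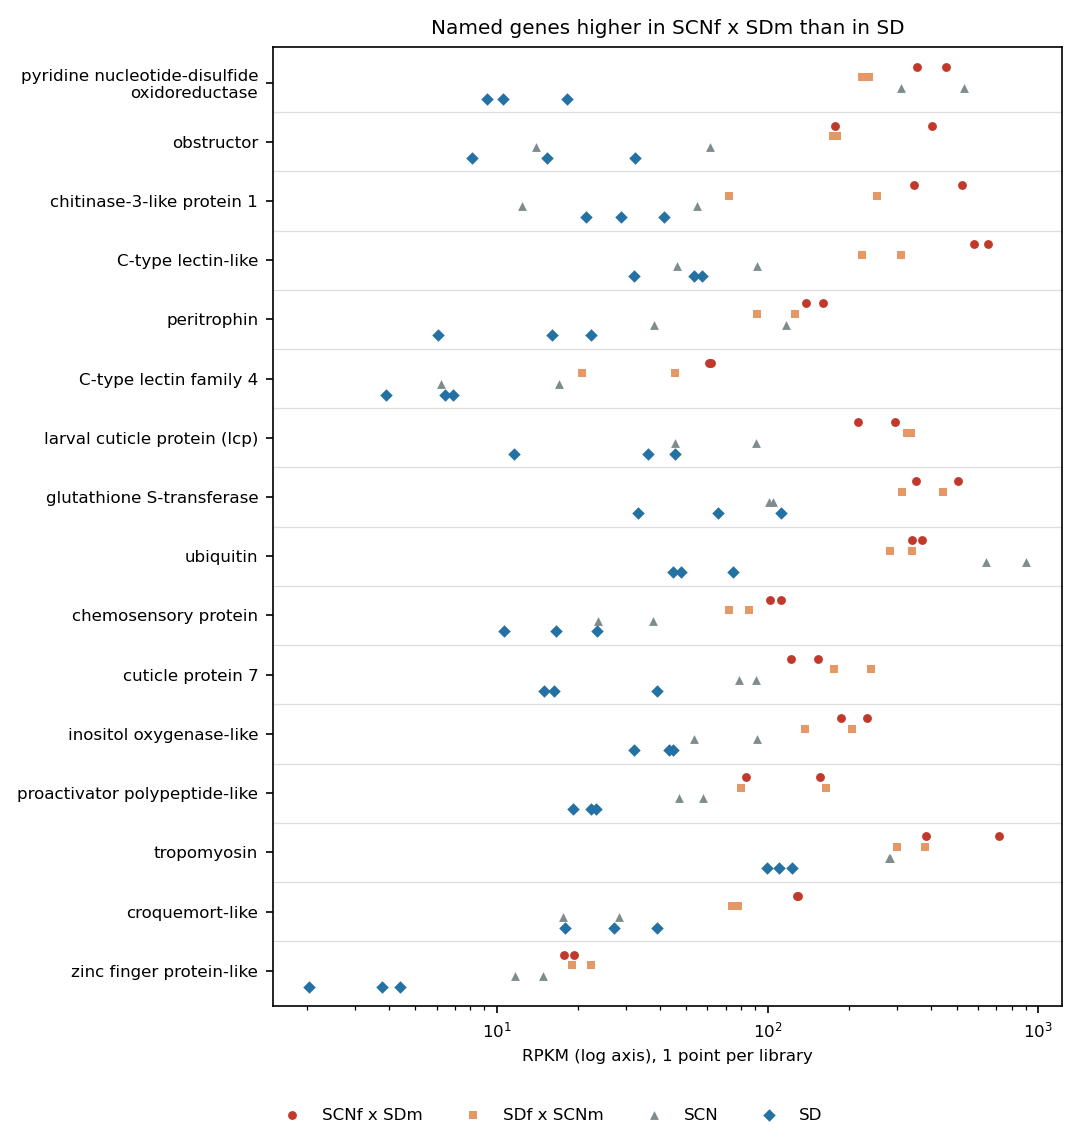
RPKM on a log axis for the 16 called genes with an informative name, 1 point per library, ordered by log2 difference from the top. In each gene both SCNf x SDm points lie right of all 3 SD points, while for ubiquitin both SCN points lie right of all SCNf x SDm points.

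No gene was called lower with all 9 libraries, and the 5 with an informative name and the smallest p below 0 are given by their values. By name they include a polymerase subunit and proteins that in other animals act in growth or lipid control, and a shared role was not tested. LKB1 interacting protein (Contig5783), whose partner in other animals is a growth-restraining kinase, had 20.8 and 12.7 RPKM in SCNf x SDm, against 67.3, 52.6 and 69.7 RPKM in SD (log2 -1.88, SE 0.39, limma adjusted p = 0.0752). It had 23.8 and 21.5 RPKM in SDf x SCNm and 15.0 and 29.0 RPKM in SCN, so the SD libraries alone were high. An AMP dependent CoA contig (Contig6972, named in part) had 20.8 and 17.9 RPKM in SCNf x SDm and 52.2, 68.1 and 108 RPKM in SD (log2 -1.86, limma adjusted p = 0.0772). A DNA damage-inducible transcript 4-like protein (Contig143cap), in mammals an inhibitor of TOR signalling, had 25.8 and 13.2 RPKM in SCNf x SDm and 62.4, 61.6 and 73.3 RPKM in SD (log2 -1.77, limma adjusted p = 0.0799).

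The sterol sensor SREBP cleavage-activating protein (Contig2539), which in mammals escorts the factor that turns on lipid synthesis, had 24.4 and 15.5 RPKM in SCNf x SDm and 56.9, 53.3 and 68.1 RPKM in SD (log2 -1.55, limma adjusted p = 0.0866). RNA polymerase II second largest subunit (Contig1350cap), part of the enzyme that makes messenger RNA, had 57.5 and 36.1 RPKM in SCNf x SDm and 127, 132 and 135 RPKM in SD (log2 -1.50, limma adjusted p = 0.0895). It had 48.1 and 53.6 RPKM in SDf x SCNm and 48.4 and 65.1 RPKM in SCN. In each of the 5 genes all SDf x SCNm and SCN libraries also lay below all SD libraries. In all 5 genes SCNf x SDm and SD did not overlap, as in 2875 features (20.9%) in all, and each passed in the fit without the SCN libraries. From that fit 8 genes with informative names and the smallest p below 0 were taken after values were seen. Only genes with both SCNf x SDm libraries below all SD libraries could enter, and the 8 include 2 of these 5. Among the other 6, LSM14 homolog A (Contig29), an RNA-binding protein of P-bodies, had 370 and 224 RPKM in SCNf x SDm and 1119, 1069 and 1571 RPKM in SD (log2 -2.09). Nuclear RNA export factor 1 (Contig1193cap), which carries messenger RNA out of the nucleus, had 41.6 and 28.6 RPKM in SCNf x SDm and 96.5, 101 and 130 RPKM in SD (log2 -1.62). The others were contigs named for WD repeat phosphoinositide-interacting protein 3 (Contig4250, -1.95), ataxin-7-like protein 3 (Contig13193, -1.78), gametocyte-specific factor 1 (Contig12532, -1.38) and RNA polymerase I subunit RPA2 (Contig4307, -1.38).

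**Figure D3:**
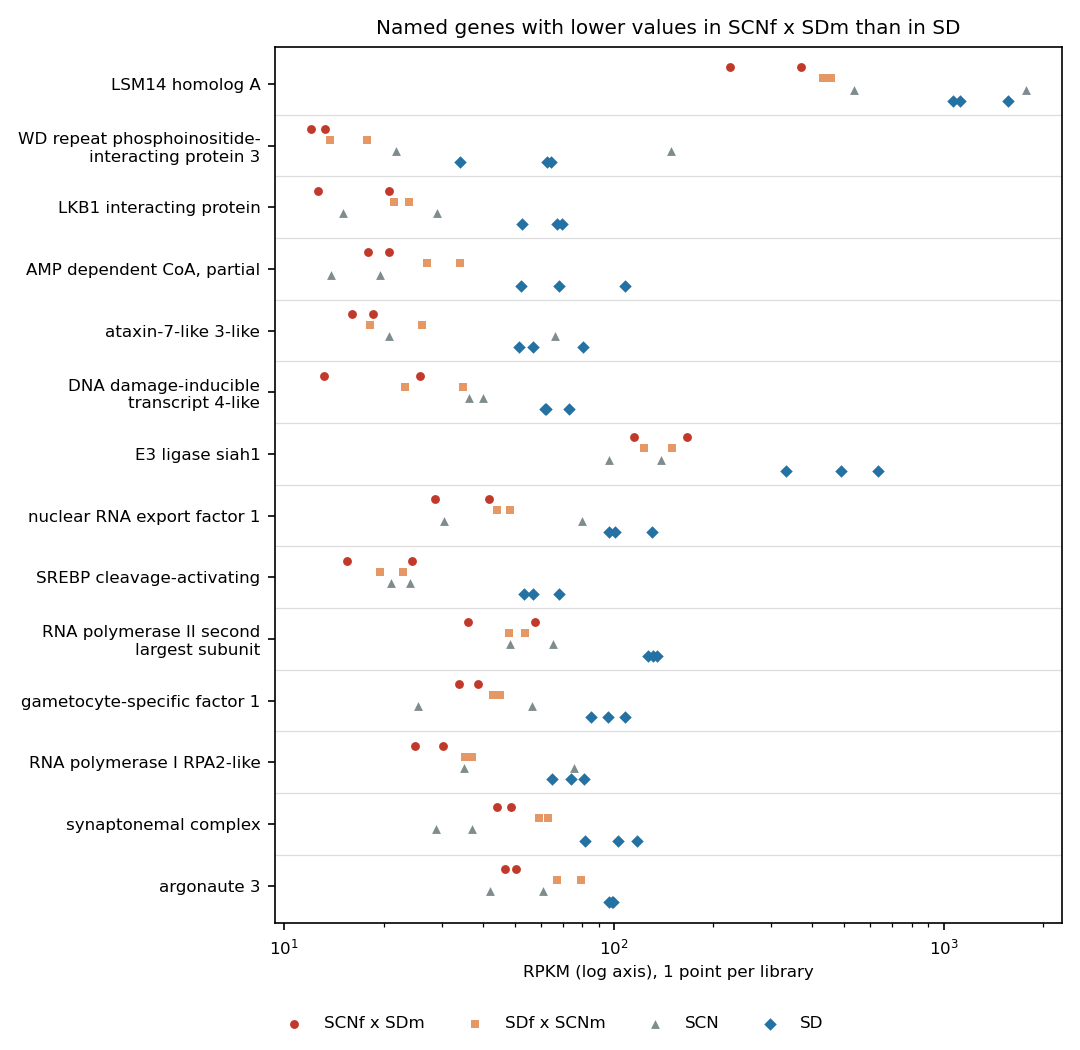
RPKM on a log axis for 14 genes with lower values in SCNf x SDm than in SD, 1 point per library, ordered by log2 difference with the lowest at the top. Both SCNf x SDm points lie left of all 3 SD points in every gene. This was a condition of choice for the genes taken by smallest p in the fit without the SCN libraries. None of the 14 had an adjusted p under 0.05 in the fit of all 9 libraries.

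As a group, cuticle and chitin genes stood furthest above SD. Of 90 members 83 lay above 0, with a median log2 difference of 1.41 beside 0.01 over all features, and 5 were called higher against a background of 0.385%. In 65 of the 90 (72.2%) both SCNf x SDm libraries lay above all SD libraries, beside 23.1% of all features, and 0 members lay below all of them. The list median of log2(RPKM + 1) was 6.26 and 6.33 in SCNf x SDm, 6.07 and 6.0 in SDf x SCNm, 5.97 and 4.03 in SCN, and 5.04, 4.62 and 4.21 in SD. Its summed level was 53361 and 48789 RPKM in SCNf x SDm, against 16699, 26629 and 10842 RPKM in SD. Without the SCN libraries 31 members (34.4%) passed as higher, beside 4.18% of all features, and 0 as lower. The median stayed between 1.20 and 1.56 in all 23 alternatives.

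Cuticle contigs with the largest differences were not among the called ones, since their spread in the fit of all 9 libraries was larger. These were picked after their values were seen. Cuticle protein 7 (Contig78214) had 3392 and 2742 RPKM in SCNf x SDm, against 223, 424 and 23.5 RPKM in SD (log2 4.52, SE 0.97, limma adjusted p = 0.0814). Cuticle protein 19 (Contig10569) had 1389 and 1739 RPKM in SCNf x SDm, against 169, 150 and 16.0 RPKM in SD (log2 4.36, limma adjusted p = 0.0979). In both genes SD replicate 3 was the lowest of the 9 libraries, and its part in the difference was not tested. Both genes passed as higher without the SCN libraries.

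**Figure D4:**
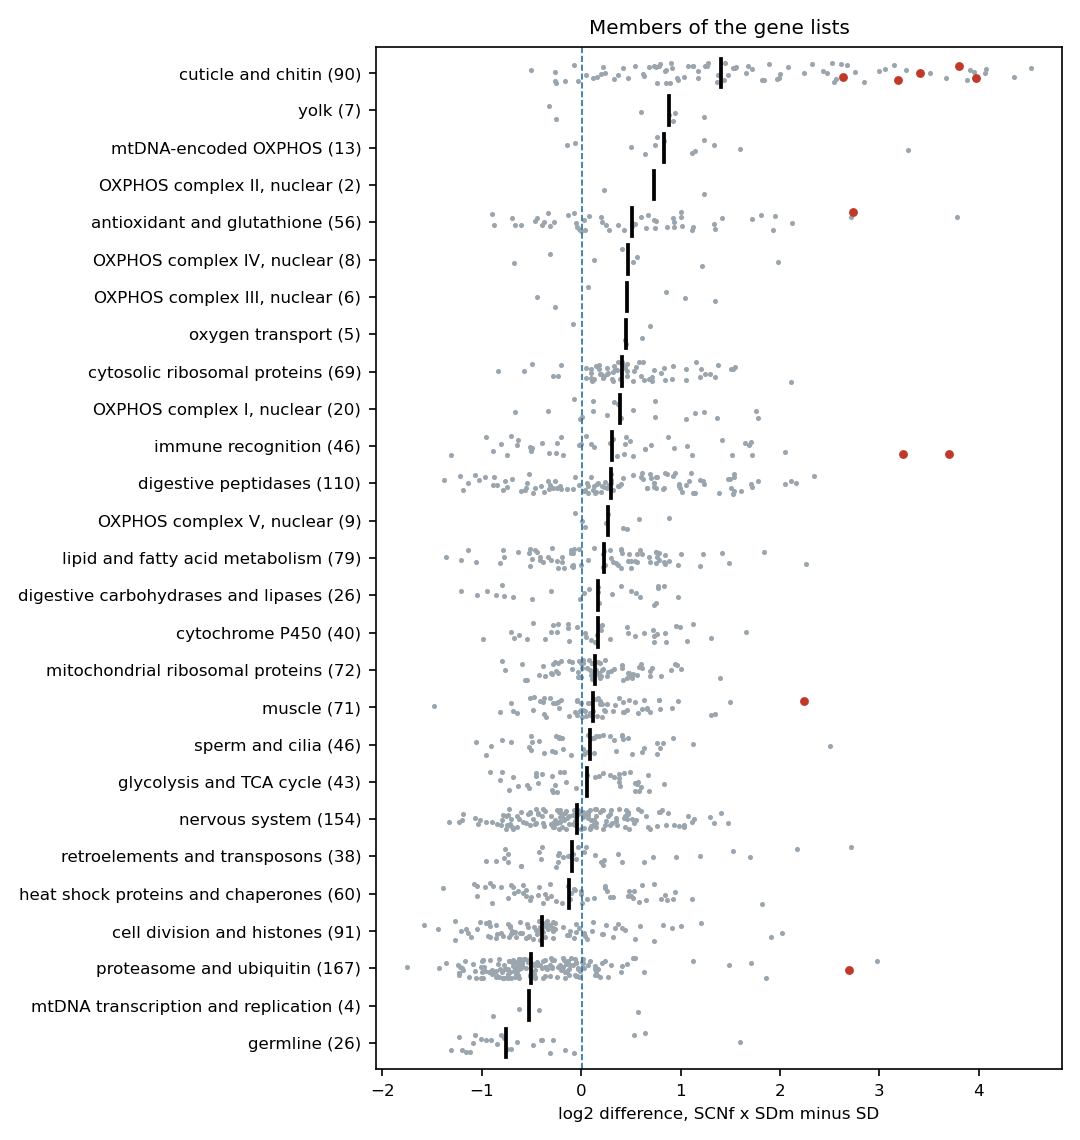
Log2 difference, SCNf x SDm minus SD, of each member of the 27 gene lists, with the number of members in brackets. Black bars mark list medians, from 1.41 for cuticle and chitin down to -0.76 for the germline; red points are called members, and the dashed line is the median of all features, 0.01.

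Antioxidant and glutathione genes, which remove reactive oxygen and conjugate toxins, had 38 of 56 members above 0. Their median was 0.51, which was 0.30 without SCNf x SDm replicate 2. With all libraries 1 member (1.79%) was called, the glutathione S-transferase above, beside 0.385% of all features. Without the SCN libraries 9 members (16.1%) passed as higher, beside 4.18% of all features, and 0 as lower, and 7 of the 9 are named as glutathione S-transferases. The largest, Contig10970, had 626 and 1290.0 RPKM in SCNf x SDm, against 139, 64.9 and 29.5 RPKM in SD (log2 3.78, SE 0.81, limma adjusted p = 0.0820 with all libraries). Superoxide dismutase (Contig12397), which disarms superoxide, had 157 and 178 RPKM in SCNf x SDm and 65.7, 35.1 and 34.2 RPKM in SD (log2 1.93, limma adjusted p = 0.0619). Immune recognition genes had 28 of 46 members above 0. Their median was 0.31, which was 0.11 under quantile normalization and 0.16 without SD replicate 2. The pair of lectins was called (4.35%, beside 0.385% of all features). Without the SCN libraries 7 of the 46 (15.2%) passed as higher, beside the same 4.18%, each named as a lectin or agglutinin, and 0 as lower.

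The proteasome and ubiquitin list ran the other way from its called member. Only 29 of 167 members lay above 0, the median was -0.50, and 85 (50.9%) lay below all SD libraries, beside 20.9% of all features. The list mixes proteasome subunits with ubiquitin enzymes, and its median does not describe each part. Alpha and beta subunits of the proteasome, looked at after values were seen, ran from -0.56 (Contig15729) to 0.46 (Contig6246). Its non-ATPase regulatory subunits ran from -0.98 (Contig2627) to 1.49 (Contig10769). Ubiquitin was the 1 member called (0.60%), a share near the 0.385% of all features. Without the SCN libraries 3 of the 167 members passed as higher, a smaller share than the 4.18% of all features, and 6 as lower, where 1.35% of all features did. Among the 6 was the E3 ligase siah1 (Contig1903), which hands ubiquitin to its substrates, with 115 and 166 RPKM in SCNf x SDm and 490, 332 and 633 RPKM in SD (log2 -1.75, limma adjusted p = 0.0895 with all libraries). Another contig with a seven-in-absentia name, sinat3 (Contig37154), was among the 3 higher, at 44.3 and 65.5 RPKM in SCNf x SDm and 5.72, 5.26 and 7.14 RPKM in SD (log2 2.97).

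Germline genes had the lowest list median, -0.76, with 3 of 26 members above 0, 17 (65.4%) below all SD libraries, beside 20.9% of all features, and 0 called. Argonaute 3 (Contig1561), a small-RNA protein that in Drosophila silences transposons in the germline, had 50.5 and 46.8 RPKM in SCNf x SDm, against 98.8, 96.9 and 99.6 RPKM in SD (log2 -1.0, SE 0.31, limma adjusted p = 0.173). A synaptonemal complex contig (Contig4930), which joins paired chromosomes in meiosis, had 48.6 and 44.1 RPKM in SCNf x SDm and 103, 117 and 81.6 RPKM in SD (log2 -1.09, limma adjusted p = 0.154). They were the 2 of 26 germline members that passed as lower without the SCN libraries, where 1.35% of all features did. The list's summed level was 1739 and 1638 RPKM in SCNf x SDm, against 2843, 3208 and 2953 RPKM in SD. Cell division and histone genes had 22 of 91 members above 0, a median of -0.40, 43 (47.3%) below all SD libraries, beside 20.9% of all features, and 0 called. Without the SCN libraries 3 of the 91 (3.30%) passed as higher and 1 as lower, shares near or under the 4.18% and 1.35% of all features.

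Values of other stage, sex and tissue markers follow, and their part in the results was not tested. Yolk genes summed to 38876 and 26165 RPKM in SCNf x SDm, against 14934, 33857 and 11441 RPKM in SD, with 5 of 7 members above 0, a median of 0.88 and 0 called. That median was 0.22 under quantile normalization, 0.50 without SD replicate 3 and 0.58 without SCNf x SDm replicate 1. Vitellogenin 2 (Contig1760cap), a yolk precursor made by egg-laying females, ranged from 5550.1 to 13737 RPKM in SCNf x SDm and from 1346 to 14118 RPKM in SD, so the groups overlapped. Muscle genes summed to 36518 and 33909.6 RPKM in SCNf x SDm, against 36361, 30041 and 31548 RPKM in SD. Of these genes 44 of 71 lay above 0, with a median of 0.12, and only tropomyosin was called (1.41%, beside 0.385% of all features). The nervous system list had 72 of 154 members above 0 (median -0.05) and the sperm and cilia list 27 of 46 (median 0.09), with 0 called in both. The medians of the muscle, nervous system and sperm lists changed sign among the alternatives.

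The 13 protein-coding genes of mitochondrial DNA gave high values in both groups, and none passed the test (0 by limma, with 2 at an unadjusted p under 0.05, and 0 in each alternative fit). Of the 13, 11 lay above 0, with a median log2 difference of 0.83, and in 6 of them (46.2%) both SCNf x SDm libraries lay above all SD libraries, beside 23.1% of all features. Under quantile normalization, which moved the median of all features from 0.01 to -0.11, nad4 and nad5 lay below 0 and the list median was 0.47. The list median was 0.51 without SD replicate 2 and 1.48 without SD replicate 3. Summed over the 13, the level was 77293 and 118628 RPKM in SCNf x SDm, 64879 and 80125 RPKM in SDf x SCNm, 86891 and 143439 RPKM in SCN, and 50950 to 95883 RPKM in SD. That was 5.94% and 7.88% of all RPKM in SCNf x SDm, against 4.58%, 2.62% and 7.48% in SD. Several of these genes spread widely among SD libraries, where replicate 3 was the highest for all but nad6.

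Of the ATP synthase genes, ATP8 had the largest difference, with 7212 and 18347 RPKM in SCNf x SDm, against 1058, 411 and 3770 RPKM in SD (mtDNA_ATP8, log2 3.28, SE 1.08, limma adjusted p = 0.187). SDf x SCNm had 949 and 5534 RPKM and SCN 1030 and 5832 RPKM, so ATP8 was highest in the SCNf x SDm pair. Its difference from SD was 2.53 without SD replicate 2 and 4.12 without SD replicate 3. ATP6 (mtDNA_ATP6) had 9788 and 18289 RPKM in SCNf x SDm and 7540, 5737 and 11781 RPKM in SD (log2 0.74, SE 0.63). Among complex IV genes, cox3 (mtDNA_cox3) had 9133 and 11494 RPKM in SCNf x SDm and 3844, 1796 and 5589 RPKM in SD (log2 1.60, SE 0.58, limma adjusted p = 0.225). The cox2 gene had log2 1.34 and overlapped between the groups. The cox1 gene (mtDNA_cox1) had 9973 and 11729 RPKM in SCNf x SDm, 23863 and 42078 RPKM in SCN, and 11768, 5686 and 21436 RPKM in SD (log2 -0.06, SE 0.69).

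Complex III's cytochrome b (cytb) had log2 1.24 (SE 0.65), and both SCNf x SDm libraries were above all SD ones. Of the complex I genes, nad3 had log2 1.15, nd4L 1.11, nad2 0.83, nad6 0.76, nad5 0.64, nad4 0.50 and nad1 -0.15. The smallest SE was that of nad6 (mtDNA_nad6), with 5649 and 6027 RPKM in SCNf x SDm and 3050, 3797 and 3546 RPKM in SD (SE 0.45, limma adjusted p = 0.444).

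**Figure D5:**
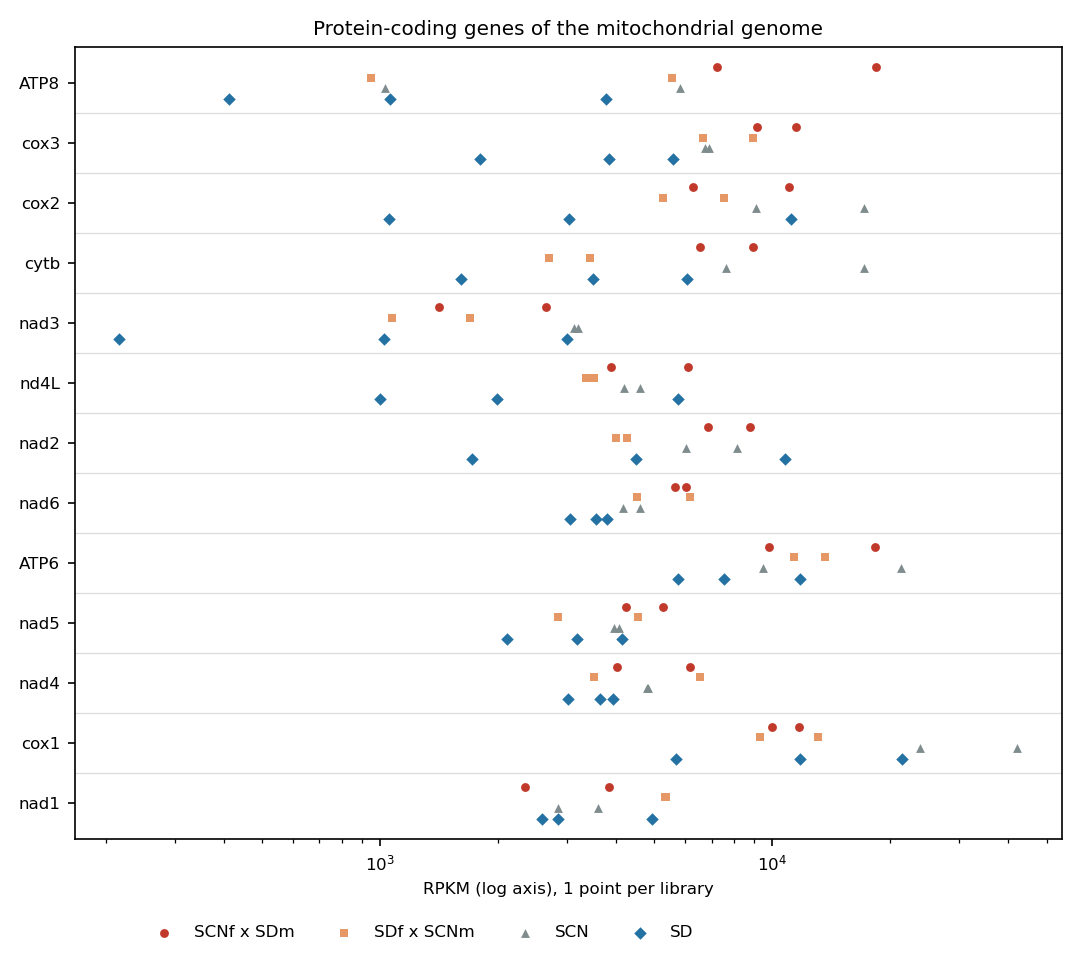
RPKM on a log axis for the 13 protein-coding mitochondrial genes, 1 point per library, ordered by log2 difference. Both SCNf x SDm points lie right of all 3 SD points for ATP8, cox3, cytb, nad6, nad5 and nad4, and the groups overlap for the other 7.

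Nuclear subunits of the respiratory chain had medians above 0 and 0 called members. The median log2 difference was 0.39 for complex I (16 of 20 above 0), 0.74 for complex II (2 of 2), 0.46 for complex III (4 of 6), 0.47 for complex IV (6 of 8) and 0.27 for complex V (8 of 9). Without SCNf x SDm replicate 2 the medians of complexes I, III and IV were 0.17, 0.14 and 0.20, and without SCNf x SDm replicate 1 they were 0.63, 0.81 and 0.75. Quantile normalization put these medians at 0.23, 0.23 and 0.25, and the complex V median was 0.50 without SCNf x SDm replicate 1. Cytochrome c oxidase subunit 6c (Contig470), of complex IV, had 1551 and 2655 RPKM in SCNf x SDm, 1664 and 1620 RPKM in SDf x SCNm, 281 and 495 RPKM in SCN, and 453, 654 and 456 RPKM in SD (log2 1.98, SE 0.43, limma adjusted p = 0.0832). Subunit 4 of the same complex (Contig3271) had 397 and 429 RPKM in SCNf x SDm and 613, 585 and 795 RPKM in SD (log2 -0.67, limma adjusted p = 0.366). Subunit 6c was the 1 complex IV member that passed without the SCN libraries, beside 1 each in complexes I and II, where 4.18% of all features passed as higher.

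Genes that read and copy mitochondrial DNA did not share that sign. Mitochondrial RNA polymerase (MTRPOL), which transcribes mitochondrial DNA, had 24.9 and 17.0 RPKM in SCNf x SDm, 22.3 and 24.8 RPKM in SDf x SCNm, 19.8 and 9.92 RPKM in SCN, and 36.6, 43.1 and 37.3 RPKM in SD (log2 -0.89, SE 0.38, limma adjusted p = 0.290). The helicase twinkle (Contig5824, log2 -0.62) and transcription factor TFB1 (-0.43) were also below 0, and TFAM, which packs mitochondrial DNA, was at 0.58. None was called, with or without the SCN libraries. Mitochondrial ribosomal proteins had 47 of 72 members above 0 and a median of 0.13, between 0.01 and 0.30 with 1 library left out. Cytosolic ribosomal proteins had 63 of 69 above 0 and a median of 0.41, which was -0.04 under quantile normalization and between 0.09 and 0.75 with 1 library left out.

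Digestive peptidases had 75 of 110 members above 0 and a median of 0.30, and without the SCN libraries 8 of the 110 (7.27%) passed as higher and 1 as lower, beside 4.18% and 1.35% of all features. Their median was 0.20 without SCNf x SDm replicate 2. Heat shock proteins and chaperones had 26 of 60 above 0 and a median of -0.12, with 1 of the 60 passing in each direction without SCN. The one higher was a heat shock protein 70 (Contig1508), with 40.3 and 40.3 RPKM in SCNf x SDm and 9.03, 15.5 and 8.70 RPKM in SD (log2 1.82). The one lower was a heat shock 70 cognate 5-like protein (Contig1749cap), whose Drosophila relative is mitochondrial, with 161 and 149 RPKM in SCNf x SDm and 311, 321 and 336 RPKM in SD (log2 -1.05). Medians were 0.17 for cytochrome P450 (25 of 40 above 0), 0.06 for glycolysis and the TCA cycle (22 of 43), 0.23 for lipid metabolism (44 of 79) and 0.17 for digestive carbohydrases and lipases (16 of 26). They were 0.45 for oxygen transport (4 of 5) and -0.09 for retroelements and transposons (16 of 38). The glycolysis, lipid, carbohydrase and retroelement medians changed sign in at least 1 alternative, and without SD replicate 2 the first of these was -0.09. Thinning to 1 depth put the P450 median at 0.03, and the oxygen transport median was 0.13 without SD replicate 3. With all libraries 0 members of these lists were called.

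The difference between SCNf x SDm and the reverse cross SDf x SCNm tests whether the crosses stand apart from SD by different amounts. Limma called 0 of 13758 features in that contrast (0.0% in either direction), 39 had an unadjusted p under 0.05, and 0 passed in every alternative, voom included. The median log2 difference between the crosses was -0.05 over all features. Lists with large differences from SD gave smaller ones here. Medians were 0.33 for cuticle and chitin (1.41 from SD), 0.40 for mitochondrial genes (0.83 from SD) and -0.24 for germline (-0.76 from SD). Run 5 held both SCNf x SDm libraries and SDf x SCNm replicate 2. Within it the medians between the crosses were, in the same order, 0.19, 0.20 and -0.29, with 1 library on one side and hence no test. Single genes had wide errors: ATP8 (mtDNA_ATP8) differed by 2.33 (SE 1.19), chitinase-3-like protein 1 (Contig10608) by 1.65 (SE 0.72), cytb (mtDNA_cytb) by 1.33 (SE 0.71) and the C-type lectin-like precursor (Contig11276) by 1.22 (SE 0.45). When nothing differs, a share of 0.05 of features is due an unadjusted p under 0.05. The 39 found are fewer, and the reason was not tested. In simulated data with equal spread limma called 0% of log2 1 and 28% of log2 2 changes between the crosses. With 2 libraries each, the 0 calls therefore do not show that the crosses are alike.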

How the data were processed

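PolyA RNA was sequenced from 9 pools, and 1 table of RPKM per library was deposited, per the file headers. Aligner, counting, filters, genome build and the population whose contigs served as reference are not stated in the sources. Groups follow the titles. Contigs are named by the SD identifier without its prefix, and protein names are those in the files. None of the contig identifiers (0) matched the Tcal_SD_v2.1 gene table, so no sequences or coordinates are given.

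Low RPKM values fell on steps of 1 read. Reads could be recovered for 13735 of 13758 features (99.8%), where 99.98% of values came within 0.05 of a whole read. The deposited values hold an added constant of 1.12 to 18.4 reads per library, so no feature is at 0 RPKM.

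The main test was limma (3.58.1, R 4.3.3) with a mean-variance trend on log2(RPKM + 1), pseudocount 1, on all 9 libraries with 4 group means and no filter. Adjusted p-values are Benjamini-Hochberg over 13758 features, taken against 0.05. Fold changes on this scale understate changes of low features. Passing without the SCN libraries means an adjusted p under 0.05 in the same fit on the other 7 libraries. Gene lists match words in protein names and were described by counts and medians, with no test. The members and lists were chosen with earlier results of these data known. The naming rule took the 12 largest called differences with informative names in each direction (or the 5 smallest p where none was called), 3 unnamed ones, the mitochondrial genes, up to 3 called members per list and the 5 most abundant called genes. Other list members named passed without the SCN libraries, apart from those of the yolk, complex IV and mitochondrial DNA transcription lists. Members of these lists were taken whether they passed or not.

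On simulated data with 200 changed features among 13758, the contrast with SD called 0%, 34%, 90% and 94% of changes of log2 1, 2, 3 and 4, with 9 unchanged features. The contrast of the crosses called 0%, 28%, 72% and 88%, with 3 unchanged. Each simulated feature had the same spread in every library, while the real SCN pair differed more than pairs of the other groups. Rates in the real data may therefore differ. Reads of the SCNf x SDm pair differed by a chi-square of 75.5 per feature, and the closest pair within a group, SD replicates 1 and 3, by 14.6. No library was therefore counted as a repeat of another in its group. Libraries of different groups were not compared in this way. The labels do not say whether replicates are separate cultures; p-values reflect the spread between these samples alone, which may be technical. Alternatives changed the pseudocount, filter, scaling, libraries, trend, block, constant and depth, or used voom on the recovered reads.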

Additional observations from a re-analysis of the deposited data

How the results depend on the processing

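All 53 called features stayed above 0 in every alternative, but their number moved. Totals were 91 (all higher) with a pseudocount of 5, 255 (237 higher, 18 lower) with quantile normalization and 129 (all higher) with median-of-ratios scaling. They were 445 (395 and 50) with only the 5 libraries compared, 761 (575 and 186) without the SCN libraries, 513 (465 and 48) without both run 3 libraries and 252 (239 and 13) with voom on recovered reads. With the added constant taken off 27 were called, all higher, and with reads thinned to 1 depth, chosen after seeing the data, 29 were (26 and 3). Leaving out 1 library at a time gave 0 to 770 calls, 0 to 581 higher and 0 to 189 lower. The low counts came without an SCNf x SDm, SD or SDf x SCNm library, and the high ones without an SCN library, where the lone SCN library adds nothing to the spread. A pseudocount of 0.1, a mean RPKM of at least 5, no trend or a robust trend gave 39 to 53. The contrast of the crosses called 0 in all of them.

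With the replicate number as a block, 4 features were called, all higher. Deviations from group means correlated at 0.01 between SCNf x SDm and SD libraries numbered 1 and at -0.28 between those numbered 2. In a group of 2 libraries these deviations mirror each other, so the values are not separate checks of pairing by replicate number.

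Of 437 alternative values for the 19 called features in the naming rule, its additions included, 278 kept their call, 159 lost it and 0 changed sign. List medians moved beyond the spread between replicates in 29 of 621 cases. Depth limits the low values most: 21 of the 53 averaged under 10 RPKM in SD.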
